A study of Homo sapiens with 6 samples.

Results

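Immunoglobulin chain genes were represented by 98 of the 54675 probe sets on Affymetrix U133 Plus arrays. A probe set is a group of short DNA probes whose brightness is summarised as a single RNA level. The 98 were all probe sets whose platform annotation lists IGHM, IGHD, IGHG1, IGHA1, IGK, IGKC, IGLC1, IGLJ3, IGLL1 or JCHAIN, the 10 symbols looked up, alone or with others. They comprised 51 heavy chain, 20 kappa and 25 lambda probe sets, and 1 each for IGLL1 and JCHAIN. Of them 42 carried 1 symbol and 56 carried several, so for most the signal could not be assigned to a single gene.

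RNA came from Namalwa, Raji and Ramos, 3 established lines grown from Burkitt lymphoma, a fast-growing tumour of germinal centre B cells in which MYC is joined to an immunoglobulin locus. Each line gave 1 array labelled miR26a and 1 labelled empty. Per the labels, the lines were transfected and microRNA expression was induced with doxycycline at 0.5 µg/ml for 72 h, and doxycycline is listed alike for the samples labelled empty, so both groups share it. The labels say no more of what empty holds, nor whether a line came from more than 1 clone or culture. What the p-values weigh is thus the variation among these arrays, which may be technical. The arrays of a line differ in group, so that variation also includes any difference between lines in the response to miR26a.

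Antibodies are built from paired heavy and light chains, each a variable part joined to a constant part by rearrangement of the gene. The heavy chain constant part sets the class: IGHM encodes mu of IgM, IGHD delta of IgD, IGHG1 gamma of IgG and IGHA1 alpha of IgA. A mature B cell normally makes either kappa chains, with the constant gene IGKC on chromosome 2, or lambda chains, with IGLC1 and its neighbours on chromosome 22, and the heavy chain genes lie on chromosome 14. IGLL1, also on chromosome 22, encodes part of the surrogate light chain that pairs with mu in precursor B cells, and JCHAIN, on chromosome 4, links antibodies into polymers. Variable segments of a family resemble each other and are mutated in germinal centre cells, so probe sets made to 1 rearranged chain can hybridise to others or miss a given line's sequence.

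MicroRNA miR-26a-5p, the RNA induced in the miR26a group, is shown with its seed (bases 2 to 8), the part that pairs with targets, in capitals. It is encoded by both MIR26A1 on chromosome 3 and MIR26A2 on chromosome 12 and is given as RefSeq lists it (GRCh38.p14).
miR-26a-5p: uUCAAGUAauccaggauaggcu

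Of the 10 symbols, 2 had an entry in the RefSeq promoter table used (GRCh38.p14): JCHAIN and IGLL1. The 250 bases before the start of each are shown because both genes were bright on all 6 arrays. The octamer ATGCAAAT, which the transcription factors OCT2 and OCT1 bind in immunoglobulin promoters, was searched on both strands together with its 7-base ends ATGCAAA and TGCAAAT, which overlap it. Capitals mark matches to a 7-base end.
JCHAIN, chr4:70666509-70666758, minus strand: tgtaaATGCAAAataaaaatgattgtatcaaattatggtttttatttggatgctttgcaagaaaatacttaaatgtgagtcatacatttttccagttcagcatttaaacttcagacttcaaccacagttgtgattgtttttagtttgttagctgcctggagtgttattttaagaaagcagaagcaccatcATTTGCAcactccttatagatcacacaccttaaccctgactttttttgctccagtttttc
IGLL1, chr22:23580291-23580540, minus strand: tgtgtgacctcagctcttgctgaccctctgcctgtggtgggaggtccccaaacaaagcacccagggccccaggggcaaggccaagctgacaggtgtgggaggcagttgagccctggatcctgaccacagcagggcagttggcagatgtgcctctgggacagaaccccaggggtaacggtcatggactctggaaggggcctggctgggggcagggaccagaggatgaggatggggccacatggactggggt
The JCHAIN window held ATGCAAA 245 bases and ATTTGCA (the reverse of TGCAAAT) 60 bases before the start and no whole octamer. The IGLL1 window held none of the motifs. Among 35116 promoter windows of this length, 1.63% held the octamer, 3.94% ATGCAAA and 3.67% TGCAAAT on either strand. These matches are a description of letters, not of binding.

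Values are log2 intensities after RMA, so a difference of 1 is a doubling. Array medians were 4.36 to 4.44. The median of all probe set means was 4.42, taken here as a mark of signal near background, and 52 of the 98 members had a mean at or above it. All 6 measured B-cell markers (among them MS4A1, CD79A, CD79B, PAX5 and CD22) and all 4 measured germinal centre markers lay above the 75th percentile of all probe sets (6.19) on average. Of 8 T and NK cell markers 0 did, and 7 lay below the median. Means of the monocyte list were 3.41 to 3.96, of the fibroblast list 4.17 to 4.60 and of the plasma cell list 6.12 to 6.81 over the arrays. The 3 measured red cell genes (HBB, HBD and ALAS2) averaged 4.46 and 4.29 on the miR26a and empty arrays of Namalwa, 5.28 and 5.09 in Raji, and 4.18 and 4.17 in Ramos, highest in Raji, with none of the 3 above the 75th percentile. Their part in the differences of Raji was not tested. The Namalwa empty array differed in RNA quality: for ACTB the control signal from the 3′ end exceeded that from the 5′ end by 3.58 log2, compared with 1.80 to 1.98 for the other 5.

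The clearest differences lay between Raji and both other lines: bright kappa chain probe sets were higher and bright lambda chain probe sets lower in Raji, while mu chain probe sets went both ways. Of the 98 probe sets 23 passed between Namalwa and Raji (limma adjusted p under 0.05), 11 higher and 12 lower in Namalwa. Of all 54613 probe sets tested 23.6% passed there, 12.7% higher and 10.9% lower, and the members' share was 23.5%. Between Raji and Ramos 24 passed, 15 higher and 9 lower in Raji, a share of 24.5% against 27.4% of all, 13.3% higher and 14.1% lower. Between Namalwa and Ramos 3 passed, all higher in Namalwa, a share of 3.06% against 6.11% of all, 3.09% higher and 3.02% lower. The counts alone are thus near or under the background and no result about immunoglobulin genes. With a difference of at least 1 log2 as well, 15 members passed between Namalwa and Raji and 15 between Raji and Ramos. These are 15.3% each, against 8.16% and 9.03% of all, and 0 passed between Namalwa and Ramos against 1.69%. Many of these members share symbols, so they may be repeated readings of a few RNAs. Leaving out 1 array leaves 1 array of a line. In such fits fewer of all probe sets passed in each pair of lines, and fewer members in both pairs with Raji. Between Namalwa and Ramos the members' count fell or rose with the array left out. The pairs of lines share arrays. The calls rest on limma's pooling of the spread over probe sets: with no moderation 0 members and 18, 13 and 0 of all probe sets passed between Namalwa and Raji, Raji and Ramos, and Namalwa and Ramos.

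Kappa chain RNA separated Raji from the other lines. Of 20 kappa probe sets, 1 was higher and 7 were lower in Namalwa than in Raji, 7 were higher and 1 lower in Raji than in Ramos, and 0 passed between Namalwa and Ramos (1 at an unadjusted p under 0.05). The probe set 221651_x_at (IGK, IGKC) read 6.55 on the miR26a and 6.45 on the empty array of Namalwa, 11.05 and 11.12 in Raji, and 5.97 and 6.24 in Ramos. Both Raji arrays lay far above all 4 others, and no line overlapped Raji. Namalwa was 24.0-fold lower than Raji (log2 difference -4.58, SE 0.14, limma adjusted p = 1.54e-08), and Raji was 31.6-fold higher than Ramos (4.98, SE 0.14, limma adjusted p = 9.08e-09). The probe sets 224795_x_at and 221671_x_at, with the same symbols, gave the same picture, at 11.16 and 11.44 and at 10.83 and 11.13 on the Raji miR26a and empty arrays, against 6.12 to 6.85 on the arrays of the other lines. Between Namalwa and Ramos these 3 probe sets did not pass (differences 0.40, 0.21 and 0.27, adjusted p = 0.157, 0.595 and 0.355), with 95% intervals within -0.18 to 0.72.

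The IGKC probe set 214669_x_at read 7.47 and 7.45 on the Raji miR26a and empty arrays against 4.15 or less on the other 4, and 214836_x_at read 5.80 and 6.13 in Raji against 3.90 to 4.02. For both, the level in Namalwa and Ramos was below the array-wide median of 4.42, so the ratios to Raji (Namalwa 9.95-fold and 4.14-fold lower) compare with a signal near background. The probe set 211644_x_at was lower in Namalwa than in Raji too (-1.83, adjusted p = 4.77e-06) and higher in Raji than in Ramos (1.62, adjusted p = 1.02e-05). A smaller difference in the same direction was seen for 211643_x_at (Namalwa minus Raji -0.61, adjusted p = 0.0145). The call ended when the Namalwa empty array was left out (adjusted p = 0.160), or the Raji miR26a array (0.0542) or the Raji empty array (0.0785). Against Ramos its difference of 0.59 (adjusted p = 0.0163) was lost without the Raji miR26a array (0.0569), the Raji empty array (0.0846) or the Ramos miR26a array (0.235).

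1 IGKC probe set ran the other way. 214777_at read 5.78 and 5.13 on the Namalwa miR26a and empty arrays, 4.91 and 4.66 in Raji, and 5.54 and 5.44 in Ramos. Raji was lowest (Namalwa minus Raji 0.67, adjusted p = 0.0112, and Raji minus Ramos -0.70, adjusted p = 0.00772). The first call was lost without the Namalwa miR26a array (adjusted p = 0.122) or the Raji miR26a array (0.0693), and the second without the Ramos empty array (0.150). Probe sets that carry the same symbol thus gave opposite orders of the lines. The other 12 kappa probe sets passed in no comparison, and their values spanned at most 0.72 log2 over the arrays.

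**Figure D1:**
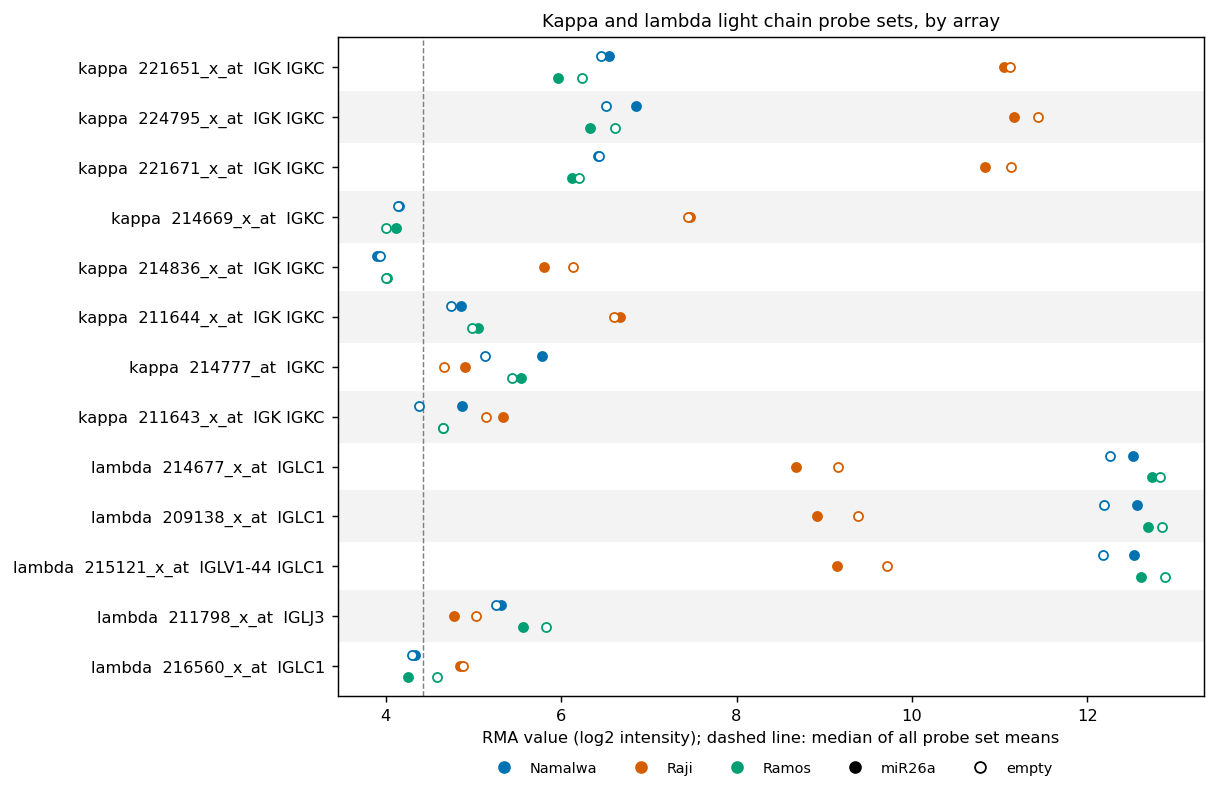
RMA values (log2 intensity) of the 13 kappa and lambda probe sets described by the rule, 1 row per probe set, with filled points for miR26a and open points for empty arrays of Namalwa, Raji and Ramos. The Raji points stand to the right for 6 of the kappa rows by more than 1 log2 and to the left for the 3 brightest lambda rows.

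Lambda chain RNA showed the opposite order. Of 25 lambda probe sets, 3 were higher and 1 lower in Namalwa than in Raji, 16.0% against 23.6% of all probe sets. In Raji 1 was higher and 4 lower than in Ramos, 20.0% against 27.4% of all. Between Namalwa and Ramos 0 passed, against 6.11% of all (3 lambda probe sets at an unadjusted limma p under 0.05). These counts lay under the background, and the order named is that of the 3 brightest lambda probe sets. The IGLC1 probe set 214677_x_at read 12.52 and 12.26 on the miR26a and empty arrays of Namalwa, 8.68 and 9.16 in Raji, and 12.74 and 12.83 in Ramos. Raji was far below the other lines, and its 2 values did not overlap with theirs. Namalwa was 11.1-fold higher than Raji (log2 difference 3.47, SE 0.18, limma adjusted p = 3.88e-07), and Raji was 14.5-fold lower than Ramos (-3.86, SE 0.18, limma adjusted p = 1.62e-07). The probe sets 209138_x_at (IGLC1) and 215121_x_at (IGLV1-44, IGLC1) gave 9.35-fold and 7.59-fold for Namalwa over Raji. All 3 stayed well above the array-wide median of 4.42 in Raji, where they read 8.68 to 9.72. Between Namalwa and Ramos each of the 3 differed by -0.39, which did not pass (adjusted p = 0.272, 0.312 and 0.336).

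Among the other lambda probe sets the differences were small. The joining segment probe set 211798_x_at (IGLJ3) read 4.78 and 5.03 on the Raji miR26a and empty arrays against 5.57 and 5.83 on those of Ramos (Raji minus Ramos -0.80, adjusted p = 0.00204), with Namalwa between them at 5.31 and 5.26. The IGLC1 probe set 216560_x_at ran against the bright IGLC1 probe sets, at 4.34 and 4.30 on the Namalwa miR26a and empty arrays against 4.85 and 4.88 in Raji (Namalwa minus Raji -0.54, adjusted p = 0.0217). That call ended when the Namalwa empty array was left out (adjusted p = 0.165), or the Raji miR26a array (0.123) or the Raji empty array (0.0597). Its call against Ramos (0.45, adjusted p = 0.0470) was lost under 10 of 11 alternatives, among them each of the 4 left-out arrays (adjusted p 0.0671 to 0.440). The remaining 20 lambda probe sets passed in no comparison and read 2.24 to 5.94.

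Heavy chain mu RNA was bright in all 3 lines, and its probe sets disagreed on the order. Of 51 heavy chain probe sets, 7 were higher and 4 lower in Namalwa than in Raji, 21.6% against 23.6% of all probe sets. In Raji 7 were higher and 3 lower than in Ramos, 19.6% against 27.4% of all. In Namalwa 3 were higher than in Ramos, 5.88% against 6.11% of all. These counts lay near or under the background. The IGHM probe set 209374_s_at read 10.98 and 10.56 on the miR26a and empty arrays of Namalwa, 12.96 and 13.14 in Raji, and 10.88 and 10.85 in Ramos. Raji was highest, with Namalwa 4.86-fold lower (log2 difference -2.28, SE 0.16, limma adjusted p = 4.70e-06) and Raji 4.55-fold higher than Ramos (2.19, adjusted p = 5.67e-06). The second bright IGHM probe set, 212827_at, named after its values were seen, read 10.23 and 9.86 in Namalwa, 10.52 and 10.04 in Raji, and 10.15 and 10.03 in Ramos. Its lines overlapped, and it passed in no pair: Namalwa minus Raji was -0.23 (95% interval -0.55 to 0.08, adjusted p = 0.299) and Raji minus Ramos 0.19 (-0.13 to 0.51, adjusted p = 0.372). Another, 216491_x_at (IGHM), read 7.26 and 6.65 in Namalwa, 4.68 and 4.70 in Raji, and 7.27 and 7.27 in Ramos, the reverse order (Namalwa minus Raji 2.26, adjusted p = 8.35e-06, and Raji minus Ramos -2.58, adjusted p = 2.79e-06).

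A heavy chain probe set annotated to IGHM, IGHG1, IGHG2 and the microRNA gene MIR8071, 211430_s_at, lay above 4.42 in Raji only. It read 4.16 and 3.97 on the miR26a and empty arrays of Namalwa, 8.78 and 8.87 in Raji, and 4.33 and 4.12 in Ramos. Namalwa was 27.0-fold lower than Raji (-4.76, adjusted p = 1.20e-08) and Raji 24.3-fold higher than Ramos (4.60, adjusted p = 1.23e-08), both against signals near background. The probe set 228518_at, annotated to IGHM, IGHG1 and MIR8071, moved likewise, with 5.72 and 5.92 in Raji against 4.05 to 4.25 elsewhere, and so did 217022_s_at (IGHA1, IGHA2), with 4.55 and 4.48 in Raji against 3.12 to 3.47. The annotation does not tell which class gave the signals of 211430_s_at and 228518_at. For 217022_s_at the constant genes listed are both alpha, beside the locus symbol IGH, and its Raji values lay just above 4.42. The 5 probe sets annotated to IGHG1 alone read 2.53 to 7.80, and 1 of them was called in any pair of lines. Neither of the 2 annotated to IGHA1 alone was called, at 2.69 to 4.41.

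The next 3 heavy chain probe sets, 211637_x_at (many heavy chain symbols and the variable segment IGHV3-23), 211635_x_at (7 heavy chain symbols) and 211634_x_at (IGHM alone), were all higher in Namalwa than in Raji. 211637_x_at read 8.08 and 7.44 in Namalwa, 6.43 and 5.91 in Raji, and 7.91 and 8.18 in Ramos (Namalwa minus Raji 1.59, adjusted p = 0.000298, and Raji minus Ramos -1.88, adjusted p = 8.76e-05). 211634_x_at and 211635_x_at were higher in Namalwa than in Raji, by 0.98 and 0.77 (adjusted p = 0.0110 and 0.0104). Both calls were lost without the Namalwa miR26a array (adjusted p = 0.0954 and 0.109) or the Raji miR26a array (0.104 and 0.121). The Namalwa miR26a array was the brightest of the 6 for both, at 7.53 and 7.15.

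**Figure D2:**
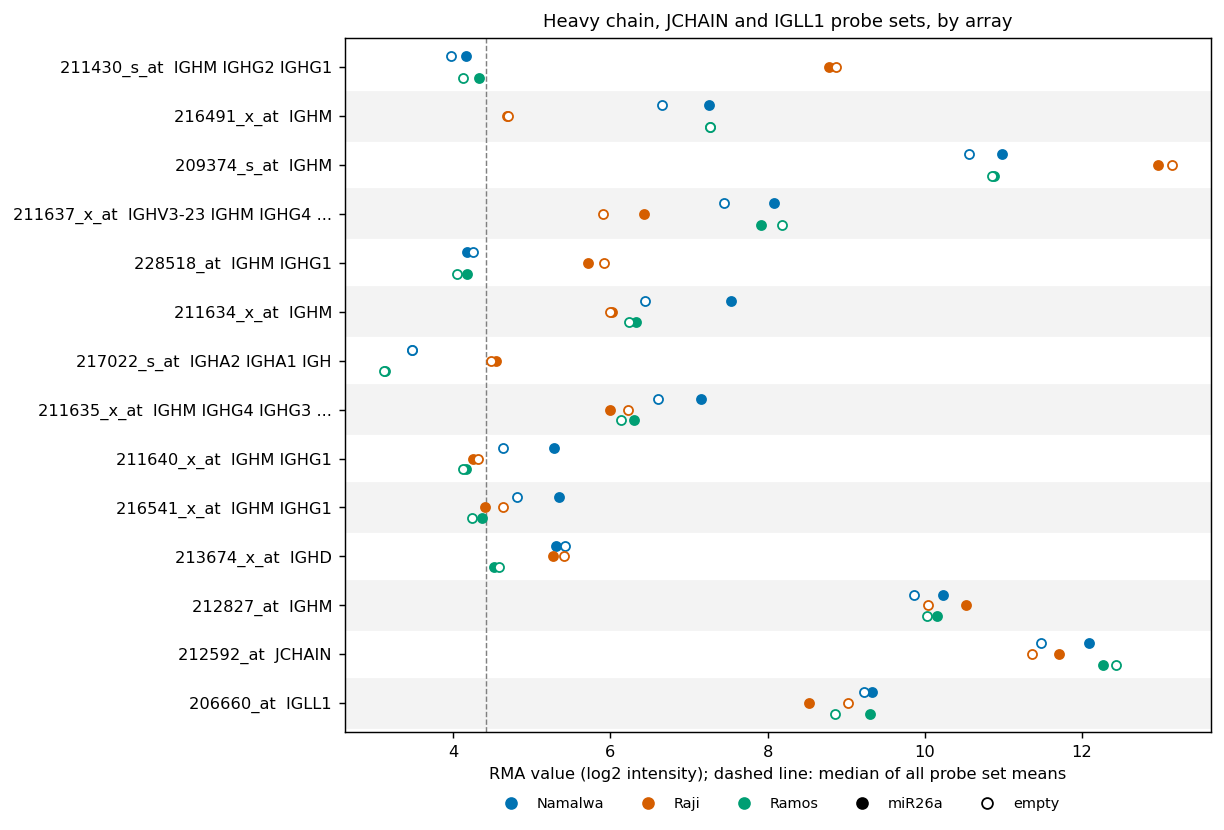
RMA values (log2 intensity) of heavy chain, JCHAIN and IGLL1 probe sets, 1 row each, with filled points for miR26a and open points for empty arrays of the 3 lines. The Raji points lie to the right for 211430_s_at and 209374_s_at, to the left for 216491_x_at, and among the others for 212827_at.

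JCHAIN RNA was high on every array. It read 12.09 and 11.48 on the miR26a and empty arrays of Namalwa, 11.70 and 11.36 in Raji, and 12.26 and 12.43 in Ramos. Raji was 1.76-fold lower than Ramos (log2 difference -0.82, SE 0.18, limma adjusted p = 0.00729), a call lost without the Ramos empty array (adjusted p = 0.159). Namalwa minus Raji was 0.26 (95% interval -0.15 to 0.66, adjusted p = 0.381), and these lines overlapped. Namalwa minus Ramos was -0.56 with an interval of -0.97 to -0.16 that leaves out 0 and no overlap of the arrays, but it missed the adjusted threshold (unadjusted p = 0.0115, adjusted p = 0.115). IGLL1 read 9.33 and 9.22 in Namalwa, 8.52 and 9.02 in Raji, and 9.30 and 8.86 in Ramos. Both Namalwa arrays lay above both Raji arrays, and Ramos overlapped with each of those lines. No pair passed the adjusted threshold, with Namalwa minus Raji at 0.51 (95% interval 0.06 to 0.95, adjusted p = 0.103).

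The 3 probe sets that were higher in Namalwa than in Ramos were named after their values were seen. The IGHD probe set 213674_x_at read 5.31 and 5.42 on the miR26a and empty arrays of Namalwa, 5.27 and 5.41 in Raji, and 4.52 and 4.58 in Ramos. Ramos was below both other lines. Namalwa was higher than Ramos by 0.82 (SE 0.13, limma adjusted p = 0.00568), a call lost without the Ramos miR26a (adjusted p = 0.0877) or empty array (0.118), and Raji was higher than Ramos by 0.79 (adjusted p = 0.00131). The other 4 probe sets with IGHD alone were not called in any pair. 211640_x_at and 216541_x_at (IGHM, IGHG1) were also higher in Namalwa than in Raji, by 0.67 and 0.56 (limma adjusted p = 0.0214 and 0.0468). Those differences were 0.34 and 0.27 without the Namalwa miR26a array. Their Ramos values (4.16 and 4.12, and 4.37 and 4.24, miR26a and empty) lay below 4.42, near background. The 2 probe sets were higher in Namalwa than in Ramos by 0.81 and 0.76 (limma adjusted p = 0.0258 and 0.0336). Both were lost without the Namalwa miR26a array (adjusted p = 0.176 and 0.221), the Ramos miR26a array (0.287 and 0.258) or the Ramos empty array (0.155 and 0.269), and with no replicate block (0.0502 and 0.0530).

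With miR26a, 0 of the 98 probe sets passed against empty (limma, smallest adjusted p = 0.398), where 0.00183% of all probe sets, a single clustered histone H3 probe set, passed. At an unadjusted p under 0.05 there were 4 members of 98, 2 higher and 2 lower, against 9.50% of all probe sets (5.12% higher and 4.38% lower). IGHM (212827_at) was at 0.32 (95% interval 0.06 to 0.58, adjusted p = 0.426) and IGKC (214777_at) at 0.34 (0.05 to 0.62, adjusted p = 0.448), while IGHG1 (217369_at) and IGHD (222285_at) were each at -0.33 (adjusted p = 0.434 and 0.398). The differences of all members ran from -0.33 to 0.40, with a median of -0.01 against -0.001 over all probe sets. JCHAIN averaged 12.02 ± 0.29 in the miR26a and 11.76 ± 0.59 in the empty group (SD, n = 3 each), a difference of 0.26 (adjusted p = 0.645). In all 3 lines alike 13 members were higher and 11 lower with miR26a, 13.3% and 11.2% against 15.1% each of all probe sets.

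Change by line was given without a test, since each line has 1 array per group. In Namalwa 68 of 98 probe sets were higher with miR26a and the median change was 0.11, in Raji 34 were higher (median -0.09) and in Ramos 45 (median -0.02), against medians of 0.005, -0.013 and 0.007 over all probe sets. In Namalwa 11 members, 11.2%, were higher by at least 0.5, against 3.73% of all. They included 211634_x_at at 1.09, 214777_at at 0.65, 211637_x_at at 0.64, and 216491_x_at and JCHAIN at 0.61 each. Of the 11, 8 were heavy chain probe sets, a class that holds 51 of the 98 members. These 8 are all annotated to IGHM, alone or with other symbols, so they may not be separate readings. The Namalwa empty array, on the lower side of these changes, was the one with the ACTB difference of 3.58 against 1.80 on the Namalwa miR26a array, and its part in them was not tested. In Raji 2 members, 2.04%, and in Ramos 0 were higher by that much, against 2.87% and 2.44% of all. Lower by at least 0.5 were 2 members (2.04%) for Namalwa, 3 (3.06%) for Raji and 1 (1.02%) for Ramos, against 3.52%, 2.38% and 1.71% of all.

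**Figure D3:**
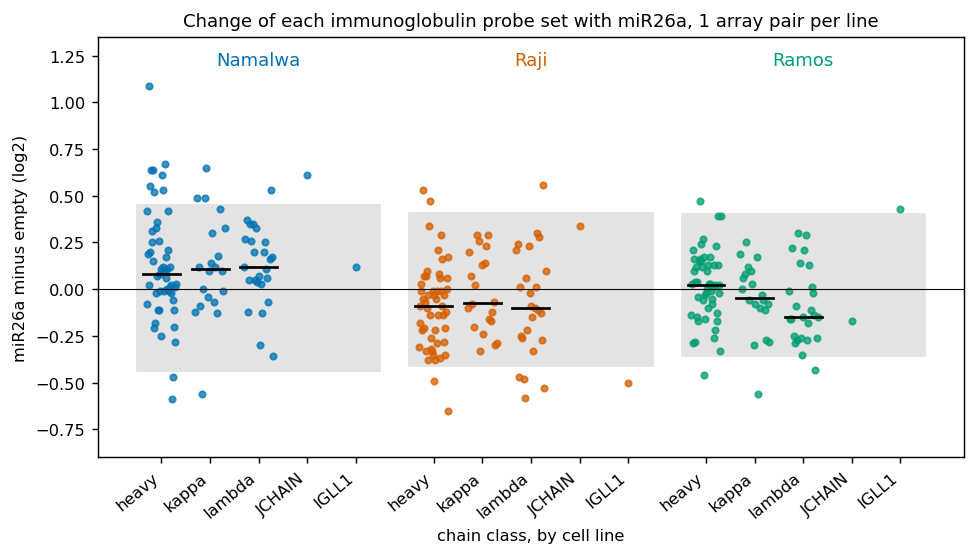
Log2 change (miR26a minus empty) of each of the 98 probe sets by chain class and line, with the class median as a bar and the 5th to 95th percentile of all probe sets as a grey band. The bands reach from -0.44 to 0.45 in Namalwa, -0.41 to 0.41 in Raji and -0.36 to 0.40 in Ramos, and 211634_x_at in Namalwa lies farthest outside at 1.09.

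Genes that work with the chains were taken from 4 lists of 64 genes, 59 of which had a probe set of their own. Each gene was read from its brightest such probe set. With miR26a 0 of 59 passed (unadjusted p under 0.05 for 5), with EXO1, an exonuclease of mismatch repair, lowest at -0.66 and SSR4, a translocon subunit, highest at 0.40. Between lines 34 of 59 passed for Namalwa and Raji, 9 for Namalwa and Ramos and 39 for Raji and Ramos. As these genes were mostly expressed, their shares (57.6%, 15.3% and 66.1%) are not comparable with the background of all probe sets. Among probe sets with a mean at or above the 75th percentile, 54.7%, 15.7% and 58.0% passed in the same order, though some of the 59 lay below that level. The counts per list that follow are therefore a description.

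Of 8 receptor partners and surrogate chain genes, 2 were higher and 3 lower in Namalwa than in Raji, 2 higher and 1 lower in Namalwa than in Ramos, and 4 higher and 2 lower in Raji than in Ramos. VPREB1, the partner of IGLL1 in the surrogate light chain, read 7.83 and 7.76 on the miR26a and empty arrays of Namalwa, 2.62 and 2.89 in Raji, and 8.24 and 8.07 in Ramos. Raji was near background, with Namalwa minus Raji at 5.04 (limma adjusted p = 1.21e-08). VPREB3, a related protein that binds newly made chains, was lower in Namalwa than in Raji by 2.49 (Namalwa minus Raji -2.49, adjusted p = 1.57e-06). The complement receptor CR2 and the inhibitory receptor CD22 were lower in Namalwa than in Raji as well, at -2.79 and -1.61. CD79A and CD79B, the signalling chains that carry surface antibody, did not pass between Namalwa and Raji (-0.13 and -0.27).

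Of 16 factors of immunoglobulin gene transcription, 9 were higher and 1 lower in Namalwa than in Raji, 1 and 1 in Namalwa than in Ramos, and 3 and 10 in Raji than in Ramos. BACH2, a repressor that holds B cells back from plasma cell fate, read 8.17 and 7.85 in Namalwa, 4.45 and 4.25 in Raji, and 8.95 and 8.90 in Ramos. IRF4, which acts at the light chain enhancers, was higher in Namalwa than in Raji by 2.16 and TCF4, an E protein, by 1.21. SPIB, an ETS factor, was higher in Raji than in Ramos by 1.52 (adjusted p = 0.000321). POU2AF1, the coactivator of octamer-bound factors, passed in no pair, with differences of -0.27, -0.18 and 0.09.

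Of 14 rearrangement, switching and hypermutation genes, 4 were higher and 1 lower in Namalwa than in Raji, 0 and 2 in Namalwa than in Ramos, and 0 and 7 in Raji than in Ramos. RAG2, a subunit of the recombinase that joins the segments, read 6.17 and 6.10 in Namalwa, 2.17 and 2.36 in Raji, and 7.16 and 6.70 in Ramos. RAG1, its partner, was below the array-wide median on all 6 arrays, at 2.68 to 3.41. UNG, the uracil glycosylase that acts after AID, read 7.42 and 7.86 in Namalwa, 6.01 and 6.27 in Raji, and 7.88 and 7.96 in Ramos (Namalwa minus Raji adjusted p = 3.74e-05). Of 21 secretory and folding genes, 7 were higher and 7 lower in Namalwa than in Raji, 1 and 1 in Namalwa than in Ramos, and 8 and 5 in Raji than in Ramos. The chaperone CANX was lower in Namalwa than in Raji by 1.41 (Namalwa minus Raji -1.41), and ELL2, an elongation factor that favours secreted heavy chain mRNA, was higher by 2.56, though both of its Raji values (1.91 and 1.51) lay near background. HSPA5, which binds unpaired heavy chains, was higher in Raji than in Ramos by 0.94.

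**Figure D4:**
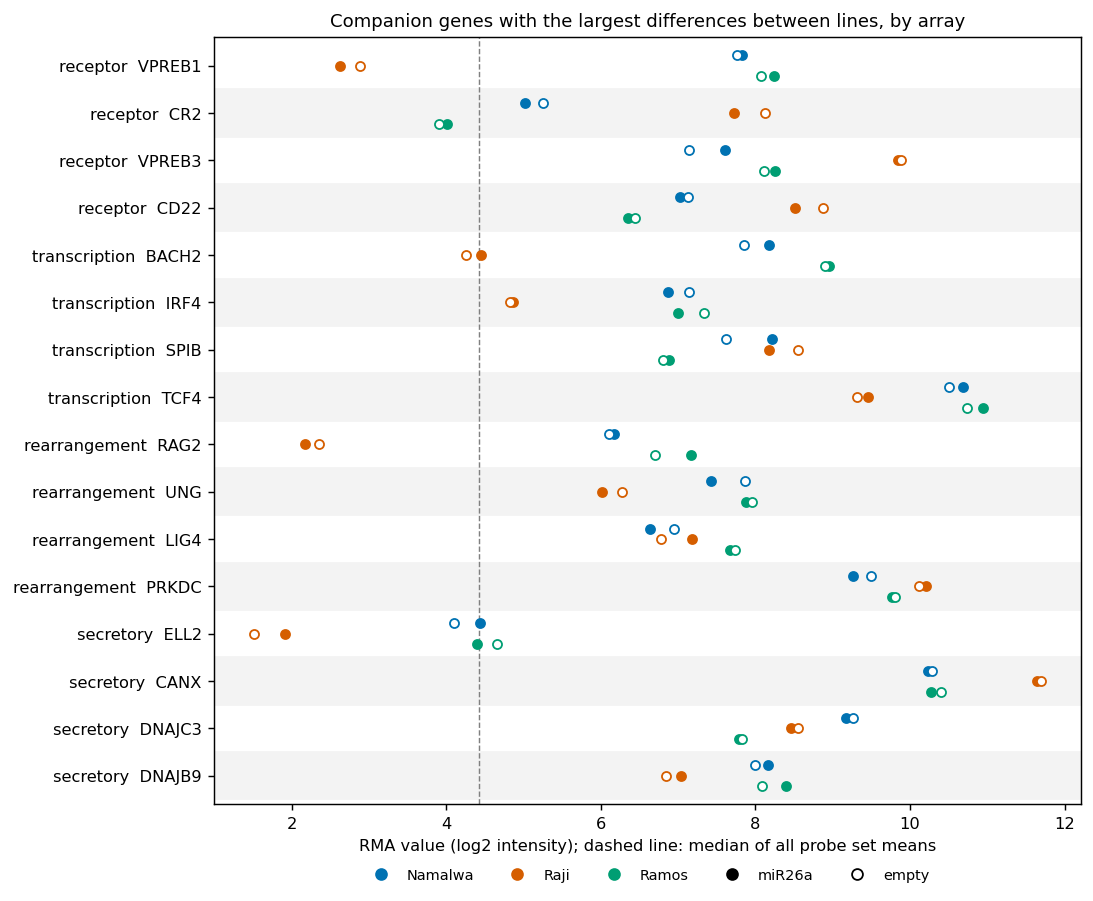
RMA values (log2 intensity) of the 4 genes of each list with the largest differences between lines, 1 row per gene, with filled points for miR26a and open points for empty arrays. VPREB1, BACH2 and RAG2 have their Raji points far to the left, and CR2 and VPREB3 have them to the right.

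The genes whose levels followed the brightest probe sets most closely over the 6 arrays were sought among 1815 probe sets with a single symbol and a span of at least 2 log2. For IGKC (224795_x_at) they were SPIC, TOX and CYP2E1 (Pearson r = 0.9997, 0.9996 and 0.9993). For IGHM (209374_s_at) they were RRAS2, NEK6 and UTS2 (0.9991, 0.9991 and 0.9986). For IGLC1 (215121_x_at, also annotated to IGLV1-44) they were the lambda-like pseudogene IGLL3P, the lambda variable segment IGLV1-44 and FAM111B (0.9995, 0.9987 and 0.9965). As IGLV1-44 is also a symbol of 215121_x_at, that match may be a second reading of the same RNA. The 6 arrays are 3 lines with 2 arrays each, so these r describe 3 levels, and r passed 0.99 for 142, 72 and 59 probe sets of the 1815.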

How the data were processed

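Per the labels' design text and the submitters' processing notes, the deposited values are log2 intensities made with RMA in BRB Array Tools and GCOS, without versions. RMA corrects background, normalises quantiles and summarises probes per probe set, so a shift of all RNAs would not be visible. They were used as deposited. No detection calls were used, and the number of arrays limits the precision.

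After leaving out 62 control probe sets, limma (3.58.1, R 4.3.3) was fitted to all 54613 with no filter on level, for miR26a minus empty with the line as a block and for the 3 pairs of lines with the group as a block. The p-values were adjusted by Benjamini-Hochberg over all 54613, with a threshold of 0.05. The line pairs the arrays per the labels, and deviations from the group means correlated between the 2 arrays of a line (Namalwa 0.746, Raji 0.906, Ramos 0.836). Per class, up to 8 probe sets that spanned at least 2 log2 or were called are described with all values, together with JCHAIN and IGLL1. Symbols of 41037 of 41091 single-symbol probe sets were updated through gene IDs. Fits for miR26a minus empty and for Namalwa minus Raji were also run on simulated data with 200 changed probe sets. Those data held no other differences between lines, so they do not bear on how the calls depend on moderation. The members, lists and rules were chosen with earlier results of these data known.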

Additional observations from a re-analysis of the deposited data

Results flagged for a closer look

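For 6 described probe sets the miR26a change was at least 0.25 log2 in 1 line and at or below -0.25 in another. Each line has 1 array per group, so these differences between lines were not tested. The lambda probe sets changed by 0.26 in Namalwa and -0.48 in Raji (214677_x_at, IGLC1), by 0.37 and -0.47 (209138_x_at, IGLC1) and by 0.35 and -0.58 (215121_x_at, IGLV1-44 and IGLC1). The kappa probe set 224795_x_at (IGK, IGKC) changed by 0.33 in Namalwa and -0.29 in Raji. IGLL1 (206660_at) changed by 0.43 in Ramos and -0.50 in Raji. The heavy chain probe set 211637_x_at changed by 0.64 in Namalwa and -0.28 in Ramos. The Namalwa empty array, which enters 5 of these 6, had the ACTB difference of 3.58 against 1.80 to 1.98 on the others, and its part was not tested.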

How the results depend on the processing

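Under the alternatives 0 members passed for miR26a minus empty, including fits with no replicate block and without each line. All 354 recomputed values of 31 named probe sets stayed uncalled. Asking for at least 1 log2 or for 1 symbol can only remove calls, so the outcome of those settings was fixed in advance. Between Namalwa and Raji 23 of 98 members passed (23.5% against 23.6% of all probe sets), and 21 with no replicate block (21.4% against 20.9%). With a level minimum at the 75th percentile 12 of 15 members passed (80.0% against 54.7% of all), and with at least 1 log2 15 (15.3% against 8.16%). Among probe sets with 1 symbol 9 of 42 passed (21.4% against 23.6% of all), and with no moderation 0 (against 0.0330%). Between Raji and Ramos 24 of 98 passed (24.5% against 27.4% of all), and 22 with no replicate block (22.4% against 24.5%). With that level minimum 10 of 15 passed (66.7% against 58.0% of all), and with at least 1 log2 15 (15.3% against 9.03%). With 1 symbol 10 of 42 passed (23.8% against 27.4% of all), and with no moderation 0 (against 0.0238%). Between Namalwa and Ramos 3 of 98 passed (3.06% against 6.11% of all), and 1 with no replicate block (1.02% against 4.31%). With a level minimum at the median 5 of 52 passed (9.62% against 11.3% of all). An intensity trend and robust prior gave 5 of 98 (5.10% against 6.75%). With 1 symbol 1 of 42 passed (2.38% against 6.11% of all). With at least 1 log2 0 passed (against 1.69% of all), and with no moderation 0 (against 0.00%). Leaving out 1 array leaves 1 array of a line. The members' counts then fell in both pairs with Raji and moved either way between Namalwa and Ramos. Fewer probe sets enter under a level minimum or with 1 symbol, and the other causes were not tested. The level minimum is on the mean over all arrays, so a probe set can enter through the line in which it is high. The shares under it are therefore a description only. Many members share symbols and may not be separate readings, which holds for the shares with at least 1 log2 too. Over all probe sets the counts were 12908 (Namalwa and Raji), 14955 (Raji and Ramos) and 3335 (Namalwa and Ramos), against 18, 13 and 0 with no moderation, 7474, 7923 and 2140 with a level minimum at the 75th percentile, and 4458, 4934 and 923 with at least 1 log2. Without the Ramos miR26a or empty array they were 8507 and 8289 between Raji and Ramos, and 763 and 779 between Namalwa and Ramos. No called value changed sign. Of the uncalled miR26a differences, 17 values of 15 probe sets changed sign, each when a line was left out, to between -0.19 and 0.10. The brightest kappa and lambda probe sets lost their calls with no moderation only. Values below 4.42 are near background and limit the ratios.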

Other observations

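The 4 other heavy chain probe sets called between lines showed small differences, and were named after their values were seen. IGHG1 (217369_at) read 7.22 and 7.80 on the Namalwa miR26a and empty arrays against 6.81 and 7.09 in Raji (limma adjusted p = 0.0213), a call that ended when the Namalwa empty array was left out (adjusted p = 0.221), or the Raji miR26a array (0.0629), the Raji empty array (0.120) or the replicate block (0.0790). Between Raji and Ramos 211639_x_at was at -0.83 (adjusted p = 0.00224, and 0.0639 without the Ramos empty array). 1561937_x_at was at 0.54 (adjusted p = 0.0142, and 0.101 to 0.142 without the Raji empty, Ramos miR26a or Ramos empty array). 216557_x_at was at 0.44 (adjusted p = 0.0455, lost under 9 of its 10 alternatives, with adjusted p up to 0.349). The median span over the 6 arrays was 0.55 log2 among the 98 members and 0.54 among all probe sets. Of the members 12.2% spanned at least 2 log2, against 4.04% of all probe sets. Many of those members share symbols, so they may not be separate readings.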
